A study of Mus musculus with 2 samples.

Results

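The genes described here were 9 members of folate one-carbon metabolism and the glycine cleavage system, chosen by name from the 55536 gene IDs of the gene tables: the cytosolic enzymes Mthfd1 and Shmt1, the mitochondrial enzymes Mthfd1l, Mthfd2 and Shmt2, the glycine cleavage genes Gldc and Amt, and the folate uptake genes Folr1 and Slc19a1. RNA came from neural tube of healthy B6NCrl mouse embryos at embryonic day 12.5, for which the labels name no genetic change, with male and female embryos pooled. There was a single group of 2 libraries and no treatment or control: replicate 1 was made from a pool of 120 embryos and replicate 2 from a pool of 88. Each library was started from 10 ng of RNA, primed with oligo-dT, fragmented with Nextera transposase and sequenced with ERCC spike-in RNAs, and the labels describe it as not strand specific. The pools were separate biosamples of the same strain, so the spread between them joins biological and technical error.

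Folates carry single carbon units that cells need for thymidylate, purines and methionine. In the mitochondria, serine or glycine gives up a carbon that leaves as formate, and cytosolic enzymes load that formate back onto folate; the cytosolic enzymes can also run the reactions between serine and formate themselves. The glycine cleavage system splits glycine in the mitochondria and passes its carbon to folate. In mice, loss of Folr1, Slc19a1, Mthfd1l, Gldc or Amt is known to disturb neural tube closure or early embryonic survival, and closure is complete before the stage sampled here.

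The libraries held 33529531 and 35461403 estimated counts, of which ERCC spike-ins took 2.99% and 2.89%. Levels are in TPM, the number of transcripts of a gene scaled to a fixed library total and corrected for length, and a gene was called expressed when neither library put it under 1 TPM. By that definition all 7 neural progenitor markers and all 7 neuron markers set beside the members were expressed, and 0 of 4 choroid plexus markers. Markers listed for other tissues were expressed too: all 6 of skeletal muscle, all 6 of mesenchyme and meninges, all 5 of sensory ganglion and all 5 of neural crest and Schwann cells. So were all 4 each of endothelium, epithelium, macrophages and erythroid cells, 3 of 4 of cartilage, 2 of 4 of kidney and 2 of 6 of liver. The expressed kidney markers were Pax2 (18.3 and 17.3 TPM) and Lrp2 (1.06 and 1.09 TPM), while Cubn and Slc34a1 were under 1 TPM. Whether cells of the neural tube made the markers of these lists was not tested. Values after ± are SDs over the 2 libraries (n = 2). In bulk tissue, fewer cells of a type and less RNA per cell cannot be told apart.

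Of the 9 members, 8 were expressed, and Folr1 was not. Of 22028 protein-coding genes 60.9% were expressed. By the deposited posterior mean TPM, an alternative chosen here after seeing the data, Folr1 was at 1.57 and 2.03 TPM and all 9 members passed the limit. By that measure 62.6% of protein-coding genes passed it. Folr1 had 1 and 6 estimated counts, and its posterior mean was spread also over transcripts with 0 counts in both libraries. Folr1-209, with 0 counts, held 14.7% and 12.6% of it. Over all 9 members, with Folr1 included, the median level was 18.9 TPM. The median over the 13414 expressed protein-coding genes was 21.7 TPM. That set leaves out genes that were not expressed, so the 2 medians are not over like sets. Shmt2 was the highest member and lay at the 77.5th percentile of expressed protein-coding genes, whereas Mthfd1l, the lowest of the 8, lay at the 22.7th.

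**Figure D1:**
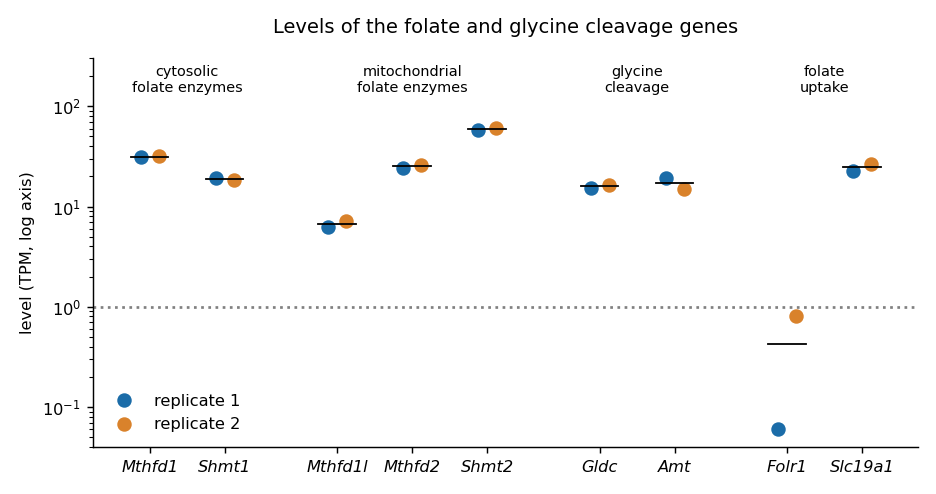
Level of each member in TPM (log axis), grouped by role, with 1 point per library and a bar at the mean of both; the dotted line marks 1 TPM. Shmt2 lies highest at 58.1 and 60.6 TPM, Folr1 lies under the line at 0.06 and 0.80 TPM, and the points of Amt are wider apart than those of Shmt1.

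Mthfd1 encodes the cytosolic enzyme that joins formate to folate and interconverts the loaded forms. The gene lies at chr12:76255298-76319803 (plus strand, GRCm38, GENCODE M21 annotation). Its level was 31.2 TPM in replicate 1 and 31.7 TPM in replicate 2 (31.5 ± 0.361), from 1932 and 1962 estimated counts. The SD was 1.15% of the mean. Shmt1, the cytosolic serine hydroxymethyltransferase that moves a carbon between serine and folate, lies at chr11:60788104-60811718 (minus strand). It was at 19.4 and 18.4 TPM (18.9 ± 0.665). Both cytosolic genes thus summed to 50.6 TPM in replicate 1 and 50.2 TPM in replicate 2.

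Mthfd1 reads were assigned mainly to 2 protein-coding transcripts that differ in the second exon. Mthfd1-201, of 28 exons, took 66.5% and 68.7% of the gene's TPM, and Mthfd1-206, which lacks the 85-base exon at chr12:76270418-76270502, took 28.6% and 21.9%. Without that exon the annotation begins the coding sequence of Mthfd1-206 at an ATG 540 bases further along, in the same frame, which leaves 2265 of 2805 coding bases. The sequences, from the GENCODE M21 transcripts, show the junction. Capitals mark the bases of Mthfd1-201 that Mthfd1-206 lacks.
Mthfd1-201: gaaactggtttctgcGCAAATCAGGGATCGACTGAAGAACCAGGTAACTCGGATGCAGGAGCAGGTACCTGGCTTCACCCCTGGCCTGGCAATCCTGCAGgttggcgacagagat
Mthfd1-206: gaaactggtttctgcgttggcgacagagat
The annotated start of Mthfd1-206 lies at chr12:76282950-76282979, and capitals mark its start codon.
Mthfd1-206 coding start: ATGcatgacctccttctgtggaacaatgcc
The deposited credibility intervals of Mthfd1-206 ran from 4.03 to 12.5 TPM in replicate 1 and from 2.20 to 11.2 TPM in replicate 2, so its share was loosely determined in each library.

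Shmt1 had the largest noncoding fraction among the 8 expressed members. Protein-coding transcripts took 58.8% of its TPM in replicate 1 and 73.8% in replicate 2 (66.3% ± 10.6). Retained-intron transcripts took 24.2% ± 1.08. The libraries differed in Shmt1-208, a transcript annotated without a coding sequence, at 3.44 TPM in replicate 1 and 0.22 TPM in replicate 2. Its credibility intervals overlapped, from 0.270 to 4.19 TPM and from near 0 to 2.08 TPM.

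Shmt2, the mitochondrial counterpart of Shmt1 and the enzyme that supplies most mitochondrial carbon units from serine, lies at chr10:127517123-127522444 (minus strand). Its level was 58.1 and 60.6 TPM (59.4 ± 1.80), from 2314 and 2532 estimated counts. Mthfd2, the dehydrogenase and cyclohydrolase of the same compartment that is known for its expression in embryonic and dividing cells, lies at chr6:83305691-83325908 (minus strand). It was at 24.1 and 26.1 TPM (25.1 ± 1.41). Mthfd1l, the mitochondrial synthetase that releases formate, lies at chr10:3973118-4167081 (plus strand) and was at 6.24 and 7.23 TPM (6.74 ± 0.700). Shmt2 thus made up 65.7% and 64.5% of the summed mitochondrial level, Mthfd2 27.2% and 27.8%, and Mthfd1l 7.06% and 7.70%.

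Shmt2 also had a pair of leading protein-coding transcripts. Shmt2-201 took 59.2% and 54.5% of the gene's TPM and Shmt2-206 took 22.6% and 29.3%. They differ in 9 coding bases at the start of exon 2 (chr10:127521107-127521115), which follow the first 33 coding bases and keep the frame, so that the coding sequence has 1512 or 1503 bases. The stretch is shown 5′ to 3′ on the gene's strand from the GENCODE M21 transcripts, with the 9 bases in capitals.
Shmt2-201: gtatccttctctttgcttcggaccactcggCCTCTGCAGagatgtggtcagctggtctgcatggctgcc
Shmt2-206: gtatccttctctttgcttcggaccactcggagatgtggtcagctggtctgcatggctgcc
Both forms were read in both libraries, Shmt2-206 at 13.1 and 17.8 TPM with credibility intervals of 7.68 to 17.7 and 13.2 to 22.5 TPM. A retained-intron transcript, Shmt2-202, took a further 12.8% and 11.1%. Mthfd2, by contrast, was 92.2% Mthfd2-201 in each library. Mthfd1l was split between Mthfd1l-202 (79.8% and 61.3%) and Mthfd1l-201 (20.3% and 38.7%), which have coding sequences of the same 2931 bases.

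The mitochondrial enzymes together were higher than the cytosolic enzymes in both libraries. Shmt2, Mthfd2 and Mthfd1l summed to 88.4 TPM in replicate 1 and 94.0 TPM in replicate 2 (91.2 ± 3.92), against 50.4 ± 0.304 TPM for Mthfd1 and Shmt1, so 3 genes were set against 2. The ratio was 1.75-fold and 1.87-fold, or 0.81 and 0.91 on the log2 scale (0.86 ± 0.07). With Mthfd2l, a further mitochondrial enzyme that is not a member, added to the sum, the ratio was 3.29-fold and 3.45-fold. That addition counts every Mthfd2l transcript, among them Mthfd2l-203, with 186 coding bases, at 37.9 and 35.4 TPM. This alternative was chosen after seeing the data. Enzymes of the 2 arms that share a reaction did not all follow the sum. Shmt2 exceeded Shmt1 by 1.58 and 1.72 on the log2 scale, whereas Mthfd1l was below Mthfd1 by a log2 ratio of -2.32 and -2.13. Mthfd2 was below Mthfd1 by a smaller margin, at log2 ratios of -0.37 and -0.28. A single protein, Mthfd1, performs the reactions that Mthfd1l and Mthfd2 divide between them. The sign of each of these ratios was the same in both libraries, but with 2 libraries an exact two-sided sign-flip test cannot give a p below 0.5, which is what it gave for each. With only protein-coding transcripts counted, Shmt2 over Shmt1 was 2.06 and 1.90 in log2.

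Mthfd2l, an isozyme of Mthfd2 that is better known from adult tissue, was at 78.2 and 79.1 TPM (78.6 ± 0.608), above Mthfd2 in both libraries. The log2 ratio of Mthfd2 over Mthfd2l was -1.70 and -1.60. This distance depended on the annotation: in the gene tables made with the older GENCODE M4 release it was -0.74 and -0.81, with Mthfd2l at 40.3 and 44.5 TPM. In the M21 tables, 48.5% and 44.8% of the Mthfd2l level was assigned to Mthfd2l-203, a transcript of 2 exons and 688 bases with 186 coding bases. The full-length Mthfd2l-201, of 8 exons, was at 38.1 and 42.5 TPM, which is still above Mthfd2-201 at 22.2 and 24.1 TPM. Mthfd2l-203 was singled out after its values were seen.

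**Figure D2:**
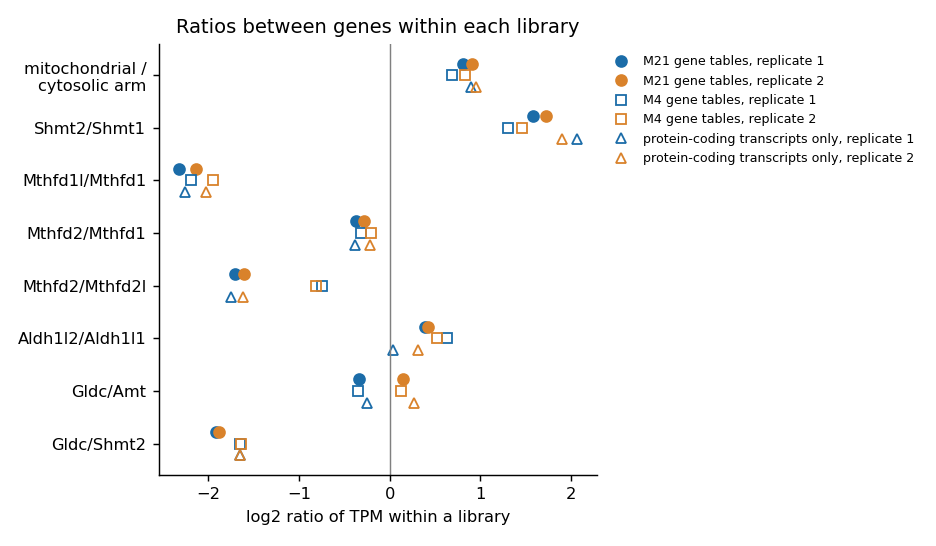
Log2 ratio of TPM between genes or arms within each library, from the M21 gene tables, the M4 gene tables and protein-coding transcripts alone. The arm ratio and Shmt2 over Shmt1 lie right of 0 in all 3 settings, Mthfd2 over Mthfd2l moves towards 0 with M4, and Gldc over Amt lies on opposite sides of 0 in the 2 libraries.

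Gldc encodes the decarboxylase that begins glycine cleavage, and it lies at chr19:30098447-30175429 (minus strand). Its level was 15.4 and 16.5 TPM (15.9 ± 0.764), from 1175 and 1301 estimated counts. Amt, the aminomethyltransferase that hands the carbon of glycine to folate, lies at chr9:108296853-108302302 (plus strand) and overlaps no other annotated gene. It was at 19.4 TPM in replicate 1 and 14.9 TPM in replicate 2 (17.2 ± 3.15), from 760 and 594 estimated counts. The order of the 2 genes therefore changed between the libraries, with a log2 ratio of Gldc over Amt of -0.33 in replicate 1 and 0.14 in replicate 2. Gldc-201, of 25 exons, held 98.0% and 98.2% of its gene's level, and Amt-201, of 9 exons, held 92.4% and 90.1%.

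The other proteins of the complex were higher than Gldc and Amt. Gcsh, the carrier protein that shuttles the glycine intermediate on its lipoyl arm, was at 84.8 and 85.9 TPM. Dld, the dehydrogenase that the complex shares with the mitochondrial keto acid dehydrogenases, was at 110.3 and 109.4 TPM. Gldc was below Shmt2 by log2 ratios of -1.92 and -1.88, whereas Gcsh and Dld were above Shmt2.

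Slc19a1, the reduced folate carrier, lies at chr10:77032241-77061002 (plus strand). It was at 22.8 and 26.3 TPM (24.6 ± 2.46), from 917 and 1031 estimated counts. Folr1, the membrane-anchored receptor that binds folic acid with high affinity, lies at chr7:101858331-101870788 (minus strand). It had 1 estimated count in replicate 1 (exact 95% Poisson interval 0.0253 to 5.57) and 6 in replicate 2 (2.20 to 13.1), which gave 0.06 and 0.80 TPM. The ratio of its scaled counts was 5.64 with an interval of 0.684 to 259, so no difference between the libraries was detectable at this depth. Of 16 Folr1 transcripts, 13 were at 0 in both libraries. Slc19a1 thus made up 99.7% and 97.0% of the summed level of these 2 uptake genes. These intervals cover counting error only, since PCR copies were not separated from molecules.

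Slc19a1 reads were divided between transcripts with different first exons and coding sequences of the same 1536 bases. Slc19a1-201, which begins at position 77033212 of chromosome 10, took 65.3% and 46.3% of the gene's TPM. Slc19a1-209, which begins upstream at 77032684, took 10.3% and 23.9%. RefSeq (GRCm38.p6) has a start at each of 2 positions near these, 77032739 and 77033212. The bases upstream are printed because the reads were divided between these starts. They were searched for GGGCGG on both strands, a letter pattern that Sp1-type factors are known to bind, and capitals mark it. The first stretch is chr10:77032489-77032683 and the second chr10:77032962-77033211, both on the plus strand.
Slc19a1 upstream start: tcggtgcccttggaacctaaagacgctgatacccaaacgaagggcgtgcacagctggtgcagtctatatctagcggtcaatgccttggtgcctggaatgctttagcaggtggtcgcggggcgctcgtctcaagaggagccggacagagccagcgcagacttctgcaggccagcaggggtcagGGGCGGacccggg
Slc19a1 downstream start: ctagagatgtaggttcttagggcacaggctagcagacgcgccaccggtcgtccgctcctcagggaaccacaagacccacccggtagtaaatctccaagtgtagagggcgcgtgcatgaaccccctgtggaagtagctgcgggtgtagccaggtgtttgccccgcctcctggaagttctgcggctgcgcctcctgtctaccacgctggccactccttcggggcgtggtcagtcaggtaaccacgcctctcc
In the 300-base windows around the starts (250 before and 50 after), GGGCGG was found 2 times at the upstream start and 0 times at the downstream start, and 35.7% of 32851 RefSeq promoters of that length held it. TATAAA and CCAAT, searched in the same way, were found 0 times at both starts, beside 13.6% and 37.4% of the promoters. The windows held 19 and 21 CpG dinucleotides, as many as or more than in 73.5% and 76.9% of those promoters. The credibility intervals of each transcript overlapped between libraries, at 10.4 to 16.6 and 8.60 to 14.6 TPM for Slc19a1-201 and at 0.0336 to 5.84 and 3.13 to 9.02 TPM for Slc19a1-209.

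The share in replicate 2 minus that in replicate 1 was -18.9 percentage points for Slc19a1-201, -16.5 for Shmt1-208 and -18.5 for Mthfd1l-202. Over 20172 transcripts with a mean share between 10% and 90%, the median difference was 3.45 points and 5.17% differed by more than 15 points. That background was taken over genes at 5 TPM or more in both libraries; Shmt1-208, with a mean share of 9.47%, lies outside its range. The 3 transcripts are named for the size of their difference, after it was seen, and the shares were not tested.

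**Figure D3:**
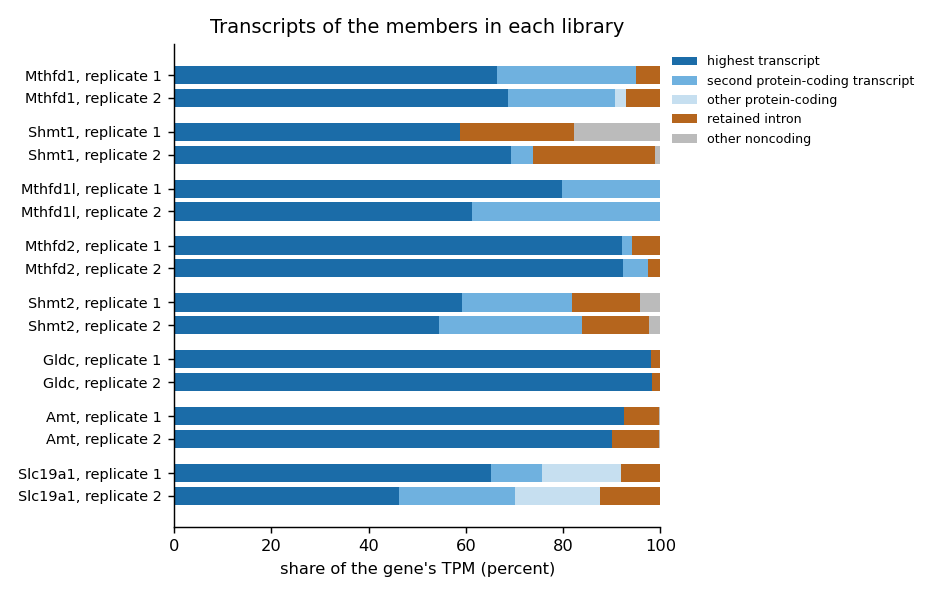
Share of each gene's TPM by kind of transcript, in percent, with 1 bar per library for the 8 expressed members. Gldc, Amt and Mthfd2 are mostly 1 transcript, Shmt2 and Mthfd1 have a second protein-coding form, and Shmt1 carries the largest noncoding shares.

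In order of mean level the members ran Shmt2, Mthfd1, Mthfd2, Slc19a1, Shmt1, Amt, Gldc, Mthfd1l and Folr1. The ranges of the 2 libraries overlapped between Mthfd2 and Slc19a1, between Shmt1 and Amt and between Amt and Gldc, so those neighbours did not differ beyond their spread. The other neighbours were apart. Opposite-strand genes overlapped 6 members, among them Col18a1 at Slc19a1, Anapc15 at Folr1, Ndufa4l2 at Shmt2 and Smcr8 at Shmt1. Without strand, reads of a gene and its opposite-strand partner cannot be told apart where they overlap.

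Between the libraries, 1 of the 8 members with at least 10 counts differed, Amt, and it was lower in replicate 2. Its TMM-scaled log2 ratio was -0.44 (95% interval -0.60 to -0.29; adjusted p = 5.32e-07, exact binomial test on the 2 libraries, Benjamini-Hochberg over 20125 genes). By this test 20.3% of all genes differed, and 23.3% of the 6181 genes in the members' range of counts; 9.78% and 10.2% were lower in replicate 2. A count of 1 in 8 was thus near the background. With a log2 ratio beyond 0.32 in either direction required as well, 6.63% of all genes and 3.74% of those in the members' range differed. A ratio as low as that of Amt or lower was found in 52 of the 6181 genes (0.841%), where the median absolute log2 ratio was 0.08 and the 95th percentile 0.29. Amt had the widest ratio of the 8 members, so this share is not a probability for a member chosen beforehand. The test compares these libraries and sees counting error only. When a dispersion common to all genes was estimated from the 2 libraries (coefficient of variation 7.36%), edgeR's exact test gave Amt a log2 ratio of -0.44 and an adjusted p of 0.294, and called 227 genes in all.

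No member was higher in replicate 2, by the exact binomial test or by edgeR's exact test, at an adjusted p or at an unadjusted p under 0.05; with ERCC scaling 4 were at an unadjusted p under 0.05 and 0 at an adjusted one. Mthfd1l had the widest of the other ratios at 0.16 (-0.02 to 0.34, adjusted p = 0.221, exact binomial test). The remaining 6 lay between -0.07 (Mthfd1) and 0.08 (Slc19a1). Over the 8 members the median was 0.05, with 6 positive and 2 negative, beside a median near 0.00 over all genes tested.

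Markers of the cell type lists were compared between the same libraries with the exact binomial test, which sees counting error only. By it 10.5% of all genes were higher in replicate 2 and 9.78% were lower. Calls over all genes fell from 4080 to 227 with edgeR's exact test and its common dispersion. Of 6 skeletal muscle markers, all 6 were lower in replicate 2, with a summed level of 298 against 213 TPM. Of 6 liver markers, 3 were tested and 2 were lower, with a sum of 8.91 against 4.86 TPM and Serpina1a at 0 in replicate 2. All 5 sensory ganglion markers were higher (199.8 against 281 TPM), as were 3 of 5 markers of neural crest and Schwann cells (181 against 213 TPM). Of 7 neuron markers 3 were higher and 1 lower, with sums of 2769.7 and 3096 TPM, and of 7 neural progenitor markers 1 was higher and 2 lower, with sums of 2788 and 2875 TPM. Of 4 endothelial markers 2 were higher, of 4 cartilage markers 2 were lower, and mesenchyme, erythroid and kidney markers had 1 lower each. The lower kidney marker was Pax2. The part of these lists in the Amt difference was not tested.

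**Figure D4:**
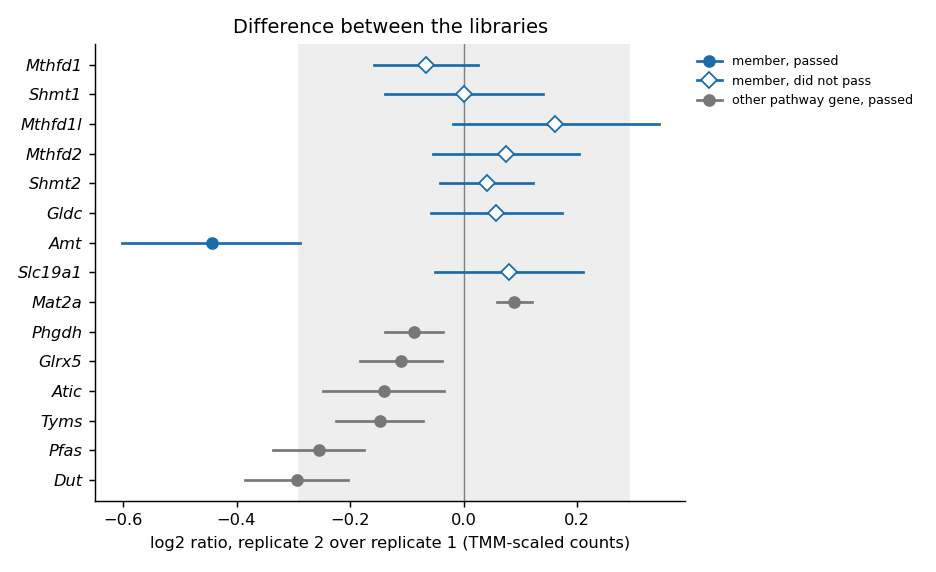
Log2 ratio of TMM-scaled counts, replicate 2 over replicate 1, with 95% binomial intervals, for the 8 members tested and 7 other pathway genes that passed the exact binomial test. The grey band spans -0.29 to 0.29, which holds 95% of genes with similar counts; Amt lies outside it at -0.44.

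The 56 other genes of the pathway that were set beside the members included 49 expressed genes. Of 50 tested, 2 were higher in replicate 2 and 6 were lower, beside 10.5% and 9.78% of all genes in those directions, and their median log2 ratio was 0.00. The 8 calls were all lost with edgeR's exact test and its common dispersion. Among genes of folate uptake and retention, 4 of 6 were expressed and 0 of 5 tested passed the exact binomial test or edgeR's exact test (0 at an unadjusted binomial p under 0.05). Slc46a1, the proton-coupled folate transporter, was at 13.7 and 13.9 TPM, and Ggh, the hydrolase that shortens folate polyglutamates, at 18.4 and 19.7 TPM. Fpgs, which adds the glutamates that hold folate in the cell, was at 12.9 and 13.7 TPM. Folr2, a second folate receptor, was at 0.97 and 0.99 TPM from 19 and 17 counts, just under the limit for expression. With the M4 annotation Folr2 was at 1.23 and 1.04 TPM, over that limit. Slc25a32, the mitochondrial folate carrier, was at 6.85 and 7.52 TPM, close to Mthfd1l.

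Of 9 genes of folate interconversion, 8 were expressed. Aldh1l2 and Aldh1l1, the mitochondrial and cytosolic enzymes that oxidise formyl folate, were at 10.0 and 10.1 TPM and at 7.63 and 7.53 TPM. Their log2 ratio, 0.39 and 0.42, had the same direction as the ratio of the arms and was smaller. With protein-coding transcripts alone it was 0.04 and 0.32. Ftcd, which feeds carbon from histidine breakdown into folate, was at 0.27 and 0.13 TPM.

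All 7 genes of glycine cleavage and lipoylation were expressed, and 1 differed, near the 20.3% of all genes that did. Glrx5, a carrier of iron-sulfur clusters that lipoylation requires, was at 148 and 145 TPM, with a log2 ratio of -0.11 (adjusted p = 0.0176, exact binomial test). It did not pass with ERCC scaling (-0.05, adjusted p = 0.298). Bola3, which acts in the same delivery of clusters, was at 73.2 and 72.6 TPM. Lias, the lipoate synthase, was at 48.2 and 49.7 TPM. Lipt1 and Lipt2, which transfer lipoate, were lower, at 6.20 and 5.58 TPM and at 12.7 and 12.2 TPM. Gldc and Amt thus lay between the lipoate transferases and the other genes of this list.

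Serine synthesis was represented by 3 expressed genes, all above Gldc and Amt. Phgdh, the first enzyme of that route, was at 168 and 162 TPM (log2 ratio -0.09, adjusted p = 0.00588, exact binomial test), and with ERCC scaling it did not pass (-0.03, adjusted p = 0.409). Psat1 was at 70.0 and 75.9 TPM and Psph at 25.4 and 27.9 TPM. Shmt2, which uses the serine made by this route, therefore lay between Psph and Psat1. All 8 serine and glycine carriers were expressed and 0 of 8 passed the exact binomial test or edgeR's exact test (1 at an unadjusted binomial p under 0.05). Their highest was Sfxn1, a mitochondrial serine transporter, at 54.4 and 53.0 TPM. Slc25a38, a mitochondrial glycine carrier, was at 30.2 and 30.1 TPM.

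The 10 genes of thymidylate and purine synthesis ranged in mean level from 10.4 TPM (Dctd, a supplier of the substrate of thymidylate synthase) to 203 TPM (Paics, an enzyme of the purine route). Tyms, which makes thymidylate with methylene folate, was at 118 and 110.2 TPM, and Dut, which makes its substrate, at 97.3 and 82.9 TPM. Both were lower in replicate 2, at log2 ratios of -0.15 (adjusted p = 0.00172) and -0.29 (adjusted p = 8.45e-09, exact binomial test). With ERCC scaling Tyms did not pass (-0.09, adjusted p = 0.0686). In purine synthesis, Gart, which takes up formyl folate, was at 72.3 and 70.2 TPM and did not pass. Atic, which performs the other formyl transfer, was at 27.9 and 25.5 TPM, with a log2 ratio of -0.14 (adjusted p = 0.0474, exact binomial test). Atic did not pass with ERCC scaling (adjusted p = 0.266), plain library totals (0.0624) or a filter of 1 count (0.0756). Pfas, at 24.2 and 20.7 TPM, was also lower, at -0.26 (adjusted p = 1.22e-08, exact binomial test). Paics had the highest level of the 6 purine genes at 198 and 208 TPM. With ERCC scaling Paics passed as higher in replicate 2 (log2 ratio 0.09, adjusted p = 3.03e-04, exact binomial test). Atic, Bola3, Lias and Slc25a32 lay outside the rule for naming genes and were chosen after their values were seen.

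The methionine cycle held the highest gene of the pathway, Mat2a, the methionine adenosyltransferase of tissues other than liver, at 297 and 334 TPM (log2 ratio 0.09, adjusted p = 4.12e-07, exact binomial test). Mat1a, the liver form, had 0 counts in both libraries, which allows up to 0.0603 and 0.0583 TPM at 3 counts. Bhmt, which remethylates homocysteine with betaine in liver, had 1 count in each library. Of the route from choline to glycine, Chdh was at 0.04 and 0.19 TPM and Dmgdh at 0.07 and 0.05 TPM. Sardh was at 3.01 and 3.07 TPM, and Pipox at 2.13 and 3.68 TPM (log2 ratio 0.54, adjusted p = 0.0794, exact binomial test). With ERCC scaling Pipox passed as higher in replicate 2 (0.60, adjusted p = 0.0346, exact binomial test).

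**Figure D5:**
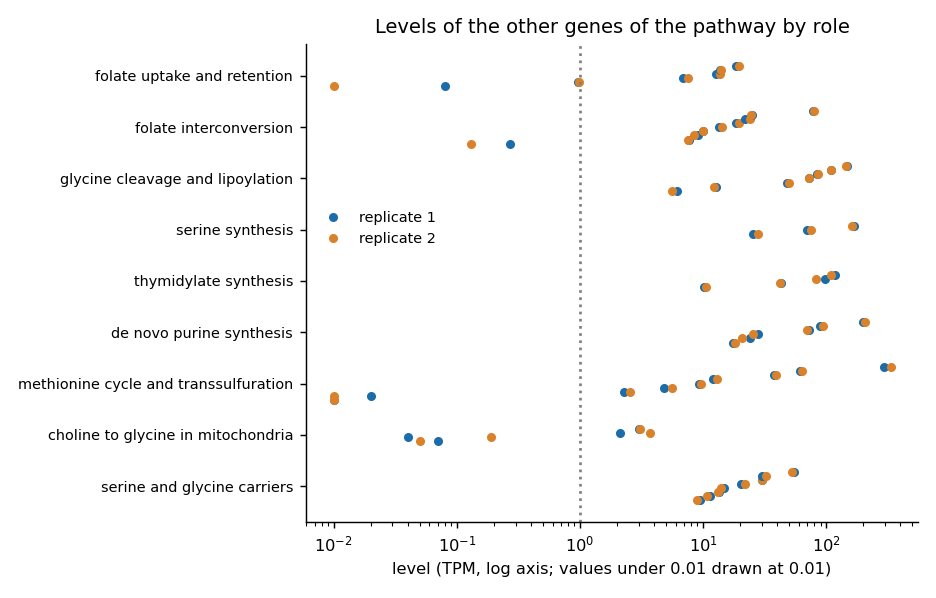
Level of the 56 other pathway genes in TPM (log axis; values under 0.01 drawn at 0.01) by role, with 1 point per library; the dotted line marks 1 TPM. Of the 56 genes 49 lie right of the line, Mat2a reaches 297 and 334 TPM, and the 7 genes under the line include Folr2, Ftcd and Mat1a.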

How the data were processed

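PolyA RNA-seq gene and transcript tables of 2 neural tube libraries were used. Per the file headers, the authors deposited estimated counts (expected_count), TPM, isoform shares in percent, posterior mean values, posterior SDs of the counts and credibility intervals, columns of the kind RSEM writes; the sources used here name no aligner or quantifier and no level for the intervals. Tables with GENCODE M21 (mm10) were the main ones and M4 the alternative. The deposited estimated counts were rounded to whole numbers, spike-ins and entries without a mouse gene ID left out (gene IDs held 97.0% and 97.1% of counts), and a gene kept if either library gave it 10 counts or more. With 1 library on each side edgeR's quasi-likelihood test cannot be fitted, so the libraries were compared with an exact two-sided binomial test on TMM-scaled totals (edgeR 4.0.16, R 4.3.3; prior count 2 for ratios), adjusted by Benjamini-Hochberg at 0.05. DESeq2 1.42.0 gave alternative size factors, and figures and summaries used Python 3.11.15. In simulated libraries the test recovered 41.8%, 66.7% and 78.5% of tested genes changed at 1.25-, 1.5- and 2-fold. The simulated counts held counting error only, without a spread between pools. These rates are over all genes from 10 counts up, most of them unlike the members in counts, so they are not rates for the members. Such p-values compare 2 libraries, not conditions. The rule for naming covered the members and, of each pathway list, up to 3 highest and 2 lowest genes and genes under 1 TPM in either library. It also covered genes in the ratios and genes that passed with over 1.25-fold. Not every gene under this rule is named in the text, and Izumo1r, Adsl and Mat2b are among those left out. Members and lists were chosen with earlier results of these data known. Sequences came from GENCODE M21 transcripts and from RefSeq promoters, which matched 8 of 9 members; Folr1 had no entry. The values of 1 pathway gene are not reported here.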

Additional observations from a re-analysis of the deposited data

How the results depend on the processing

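The mitochondrial over cytosolic log2 ratio of 0.86 ranged from 0.81 to 0.91 when either library was left out. It was 0.76 with the M4 tables and 1.30 with Gldc and Amt added to the mitochondrial genes. With complete protein-coding transcripts alone, an alternative chosen after seeing the data, it was 0.94. With Mthfd2l added, chosen likewise and with the short Mthfd2l-203 included, it was 1.75. The mean Gldc over Amt ratio of -0.10 changed sign to 0.0093 with protein-coding transcripts alone and with complete ones alone, and leaving out either library gave -0.33 to 0.14. Amt was lower in replicate 2 under all 6 other scalings, filters and annotations tried (log2 ratios -0.45 to -0.39, adjusted p 2.66e-07 to 1.31e-05), and with edgeR's exact test 0 members were lower at an adjusted p, with 1 at an unadjusted p under 0.05 (adjusted p = 0.294 for Amt). Pathway genes higher in replicate 2 numbered 2, against 5 with ERCC scaling and 0 with edgeR's exact test (1 unadjusted); lower genes numbered 6, against 2 and 0 (0 unadjusted). The median log2 ratio of all genes was 0.05 with ERCC scaling, against -0.0009 with TMM scaling. Calls over all genes numbered 4080, between 3592 and 5062 under the other scalings, filters and annotation, and 227 with edgeR's exact test. The causes were not tested. Of the members, 8 were expressed under each threshold, annotation and left-out library tried, and 9 by posterior mean TPM. By posterior mean TPM 62.6% of protein-coding genes were expressed. No paired analysis was possible because there was 1 group. At Folr1's 1 and 6 counts, depth leaves its level and any difference undetermined; posterior mean TPM gave a mean of 1.80 where the estimated-count TPM gave 0.43.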
